A study of Mus musculus with 6 samples.

Results

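The genes described here are 33 that mark astrocytes or carry out their known functions, read by 76 probe sets on Affymetrix Mouse Genome arrays. They were taken as the probe sets whose platform annotation gives a single gene symbol that belongs to a list of astrocyte genes, 76 of 45037 probe sets tested and 33 of 18193 genes. Astrocytes are the glial cells that clear glutamate and potassium from the space around synapses, supply neurons with lactate and glutamine, and wrap blood vessels with endfeet rich in water channels. They are joined to each other by gap junctions, and after injury they raise the intermediate filament gene Gfap. In the hippocampus a related cell, the radial glia-like stem cell of the dentate gyrus, shares several of these genes, among them Gfap, Fabp7 and Sox9.

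RNA came from the hippocampus of heterozygous p300-deficient mice (p300+/-) and of their wild-type littermates, all females of 3 months on a C57BL/6 background. Ep300 encodes p300, a transcriptional coactivator that acetylates histones and other proteins. Each array held equal amounts of RNA from 4 animals, with 3 pools and so 12 animals per genotype. The heterozygous deficiency was carried by the whole animal and not by astrocytes alone, and whole tissue was read, so that fewer cells of a type and less RNA per cell cannot be told apart.

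Deposited values are log2 intensities from which the median of the 6 arrays was subtracted for every probe set, so 0 is the middle of the 6 pools and no absolute level is held. No label states the log base, which was taken as 2. Under that assumption a step size that single-precision arithmetic leaves in the values placed each probe set in a coarse class of level. Of the astrocyte probe sets 54 (71.1%) fell in the class from 8 to 16 on the log2 scale, 18 in that from 4 to 8 and 4 in that from 2 to 4. Over all probe sets 29.6% fell in the highest class.

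Pools differed in ways that genotype does not explain. Over all probe sets the SD of the values was 0.331 in wild-type pool 2 and 0.29 in p300+/- pool 3, against 0.182 to 0.207 in the other 4 pools. The choroid plexus transcript Ttr was lower in wild-type pool 2 than in any other pool in all 4 of its probe sets. Deviations of p300+/- pool 3 and wild-type pool 2 from their genotype means went together (correlation 0.648 over all probe sets, a description). Ep300 itself, read by a single probe set, was at -0.26, -0.22 and -0.50 in p300+/- pools 1 to 3, against 0.22, 0.38 and 0.40 in wild-type pools 1 to 3. The genotypes did not overlap, and p300+/- minus wild-type was -0.66 ± 0.13 (SE) on the log2 scale, which did not pass (limma, adjusted p = 0.9999). Whether this probe set lies in the deleted stretch is not stated in the labels.

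No astrocyte probe set differed between genotypes past the threshold. The test was limma's, two-sided, with Benjamini-Hochberg adjustment over all 45037 probe sets and a threshold of 0.05. It called 0 of 76 astrocyte probe sets, where it called 0% of all probe sets, and each of the 76 had an adjusted p of 0.9999. Log2 fold changes, given throughout as p300+/- minus wild-type, were above 0 in 38 astrocyte probe sets and below 0 in 38. Their median was 0.0011, beside 0.0057 over all probe sets. The largest fold changes in size were 0.59 (Atp1b2) and -0.50 (Slc1a2).

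The precision sets what could have been seen. Astrocyte fold changes had a median standard error of 0.142 on the log2 scale. Their 95% intervals extended, in the median, 0.333 above and below the estimate. In 49 of the 76 probe sets the 95% interval lay within a 1.5-fold difference in either direction, and in 68 it lay within 2-fold. For the other 8 a difference of 2-fold is inside the interval. An exact permutation test of 3 against 3 pools cannot give a two-sided p below 0.1.

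At an unadjusted p under 0.05 there were 3 astrocyte probe sets, 1 higher (0.77% of all probe sets were) and 2 lower (0.451% of all were), in all 3.95% beside 1.22% of all probe sets. Both shares were below the 0.05 expected where no probe set differs and p-values are calibrated. Without wild-type pool 2 there were 0 of 76, beside 2.56% of all probe sets. With any other single pool left out the astrocyte share stayed above that of all probe sets. It ran from 2.63% beside 2.43% (without p300+/- pool 1) to 5.26% beside 1.05% (without wild-type pool 1). Without p300+/- pool 3 and wild-type pool 2 together it was 1.32% beside 2.39%. The 3 p300+/- pools lay beyond all 3 wild-type pools in 3 astrocyte probe sets, 2 of them higher (3.19% over all probe sets) and 1 lower (2.2% over all). Together these were 3.95% of astrocyte probe sets, beside 5.39% of all. Slc39a12 and Gli3 met both conditions, each with 1 of its probe sets. All of these values stem from single probe sets of genes whose other probe sets gave smaller or opposite differences.

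**Figure D1:**
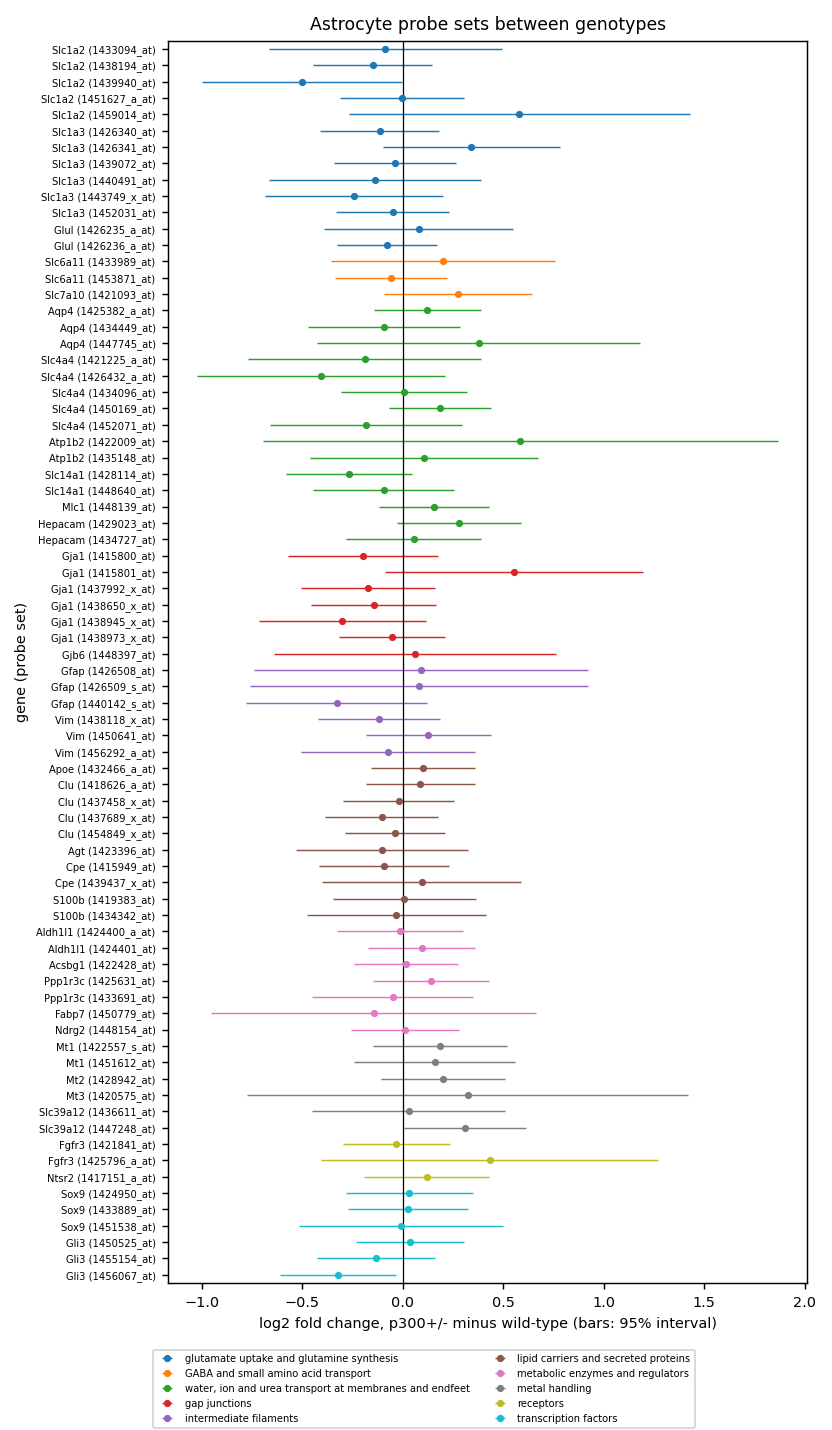
Log2 fold change of each of the 76 astrocyte probe sets, p300+/- minus wild-type, with its 95% interval (horizontal axis, log2 scale), in rows by gene and coloured by role. The points lie on both sides of 0, 38 above and 38 below, and the intervals are widest for Atp1b2, Mt3, Slc1a2, Gfap and Fgfr3 probe sets.

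Glutamate uptake is carried by Slc1a2 and Slc1a3, which encode the main astrocytic glutamate transporters, and glutamine synthesis by Glul. Of their 13 probe sets 3 had higher and 10 had lower values in p300+/- pools, with a median log2 fold change of -0.078, and none passed. Without wild-type pool 1 the count was 6 higher and 7 lower, with a median of -0.042. Slc1a2 was read by 5 probe sets, of which 4 were below 0. Its first probe set (1433094_at) was at 0.23, -0.52 and 0.011 in p300+/- pools 1 to 3, against 0.37, -0.011 and -0.38 in wild-type pools 1 to 3. Probe set 1439940_at was at -0.33, -0.75 and 0.040 in p300+/- pools 1 to 3, against -0.040, 0.14 and 0.36 in wild-type pools 1 to 3. Here p300+/- pools 1 and 2 were the lowest of the 6, and p300+/- pool 3 lay between wild-type pools 1 and 2.

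That second Slc1a2 probe set gave -0.50 ± 0.21 (SE), with a 95% interval of -1.0 to -0.0023 and an unadjusted p of 0.0492 (limma, adjusted p = 0.9999). Another, 1459014_at, leaned the other way at 0.58 ± 0.36 (SE), and its values were -0.20, 0.25 and 0.20 in p300+/- pools 1 to 3, against -1.12, -0.76 and 0.39 in wild-type pools 1 to 3. The pair 1451627_a_at and 1438194_at, both in the highest level class, gave -0.0045 and -0.15. The probe sets of this transporter gene thus spread over 1.08 on the log2 scale among themselves and gave no common direction.

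Slc1a3 had 5 of 6 probe sets below 0, from -0.24 (1443749_x_at) to -0.039 (1439072_at), and 1 above 0 at 0.34 ± 0.19 (SE) (1426341_at). Its first probe set, 1426340_at, was at 0.019, -0.019 and -0.16 in p300+/- pools 1 to 3, against 0.21, 0.075 and -0.094 in wild-type pools 1 to 3, a difference of -0.12 ± 0.13 (SE). The genotypes overlapped in every Slc1a3 probe set. For Glul, probe set 1426235_a_at was at 0.0074, -0.32 and 0.33 in p300+/- pools 1 to 3, against -0.0074, 0.14 and -0.35 in wild-type pools 1 to 3, with p300+/- pool 3 highest and wild-type pool 3 lowest. Its difference was 0.080 ± 0.20 (SE), and the other Glul probe set, 1426236_a_at, gave -0.078 ± 0.11 (SE). That other probe set had a range of only 0.20 over the 6 pools.

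Transporters of GABA and of small neutral amino acids had 2 of 3 probe sets above 0. Slc6a11, a GABA transporter, was at 0.20 ± 0.24 (SE) in 1433989_at, where p300+/- pool 3 alone reached 0.66, and at -0.059 in the dim probe set 1453871_at. Slc7a10, which carries glycine, serine and alanine, was at 0.15, -0.059 and 0.38 in p300+/- pools 1 to 3, against -0.10, -0.31 and 0.059 in wild-type pools 1 to 3. The difference was 0.27 ± 0.16 (SE), with overlap between the genotypes. When the probe sets of each gene were averaged, this gene had the smallest p of the 33 (unadjusted p = 0.101, limma, adjusted p = 0.9998).

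The water channel Aqp4, which is concentrated in endfeet, was read by 3 probe sets. The first, 1425382_a_at, varied little and was at 0.054, -0.022 and 0.022 in p300+/- pools 1 to 3, against -0.19, 0.032 and -0.15 in wild-type pools 1 to 3, a difference of 0.12 ± 0.11 (SE). Probe set 1434449_at gave -0.094 ± 0.16 (SE). The third, 1447745_at in the middle level class, was at 0.12, 1.02 and -0.39 in p300+/- pools 1 to 3, against -0.12, -0.44 and 0.17 in wild-type pools 1 to 3, so that p300+/- pool 2 stood alone at the top. Its difference of 0.38 ± 0.34 (SE) was -0.0075 without that pool.

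Slc4a4, the sodium bicarbonate cotransporter, had 5 probe sets whose fold changes ran from -0.41 to 0.18. In 1450169_at the genotypes did not overlap, with values of 0.036, 0.14 and 0.21 in p300+/- pools 1 to 3, against -0.050, -0.090 and -0.036 in wild-type pools 1 to 3. The difference was 0.18 ± 0.11 (SE), and this probe set lay in the lowest level class. In 3 others the fold change was below 0, and 1434096_at, in the highest class, was at 0.0067 ± 0.13 (SE). In 1426432_a_at and 1421225_a_at pool 1 of each genotype gave the 2 highest values and p300+/- pool 3 the lowest.

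Atp1b2, a beta subunit of the sodium pump and an adhesion molecule of glia, had the widest range of all astrocyte genes. Probe set 1422009_at was at 0.19, 0.44 and -0.76 in p300+/- pools 1 to 3, against -0.18, -1.89 and 0.18 in wild-type pools 1 to 3. Wild-type pool 2 was by far the lowest and p300+/- pool 3 the next, and the genotypes overlapped. The difference of 0.59 ± 0.55 (SE) became -0.044 without wild-type pool 2. The other probe set, 1435148_at, had the same order at the bottom, with -0.34 in p300+/- pool 3 against -0.70 in wild-type pool 2. It gave 0.11 ± 0.24 (SE).

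The remaining endfoot and membrane genes were steadier. Slc14a1, a urea transporter, was below 0 in both probe sets, at -0.27 ± 0.13 (SE) in 1428114_at and -0.095 in 1448640_at. In the first, the values were -0.21, 0.017 and -0.082 in p300+/- pools 1 to 3, against -0.017, 0.33 and 0.22 in wild-type pools 1 to 3. Mlc1, a membrane protein of astrocyte junctions around vessels, was at 0.16 ± 0.12 (SE). Hepacam, the adhesion protein that binds the Mlc1 product, was above 0 in both probe sets, at 0.28 ± 0.13 (SE) (1429023_at) and 0.055 ± 0.14 (SE) (1434727_at). In 1429023_at p300+/- pool 3 and wild-type pool 3 met near 0, at -0.012 and 0.012, and kept the genotypes from separating.

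**Figure D2:**
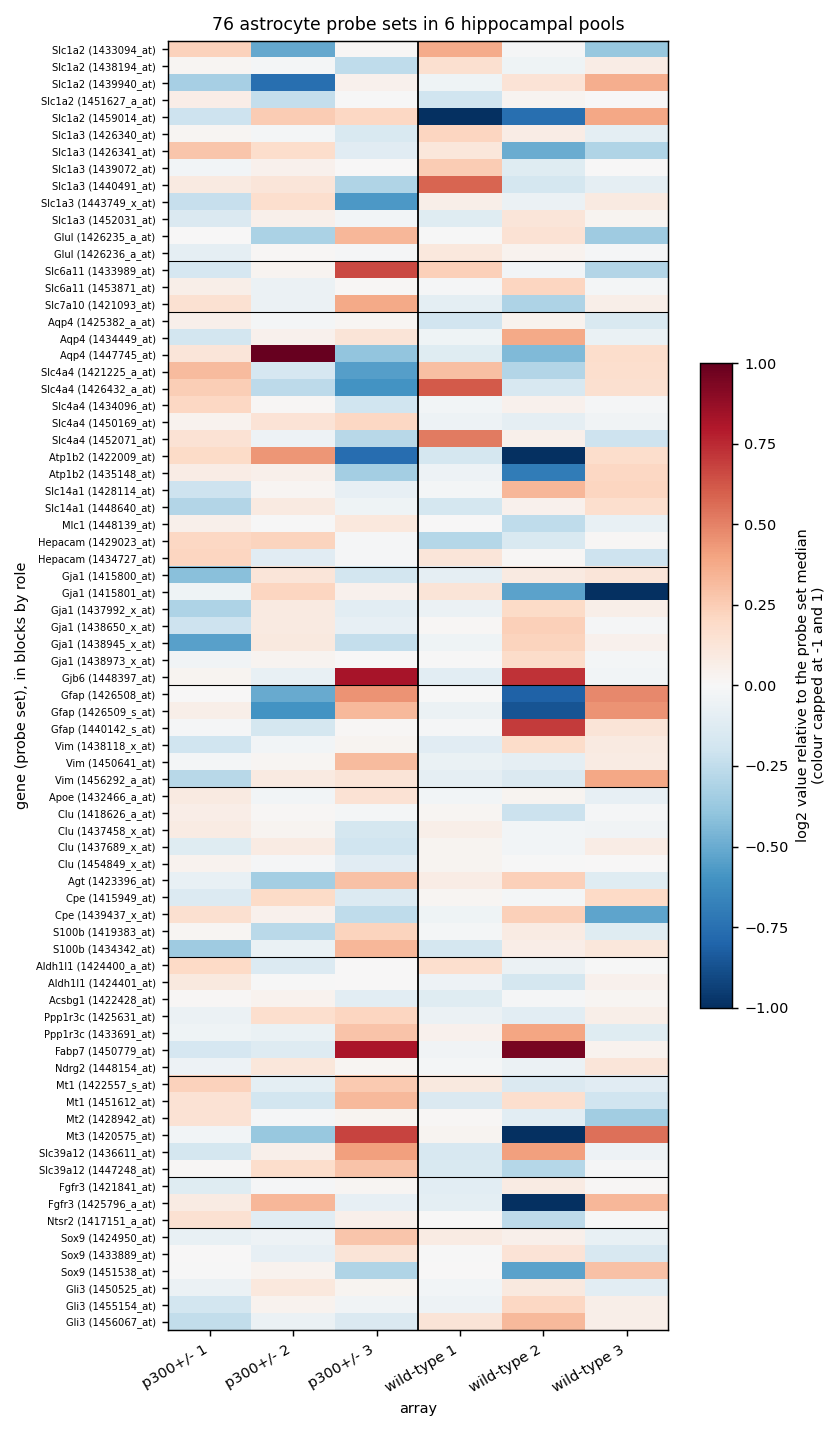
Values of the 76 astrocyte probe sets (rows, in blocks by role) in the 3 p300+/- and 3 wild-type pools (columns), as log2 values relative to each probe set's median, with the colour capped at -1 and 1. No role separates the genotypes in all of its probe sets, and values below -1 occur in wild-type pool 2 for Atp1b2, Mt3 and Fgfr3, with others in wild-type pools 1 (Slc1a2) and 3 (Gja1).

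Gap junctions between astrocytes are built mainly from the connexins encoded by Gja1 and Gjb6. Gja1 was read by 6 probe sets, 5 of them below 0, from -0.30 to -0.052. The first, 1415800_at, was at -0.41, 0.12 and -0.18 in p300+/- pools 1 to 3, against -0.090, 0.090 and 0.12 in wild-type pools 1 to 3, a difference of -0.20 ± 0.16 (SE). In all 5 of these the lowest value was that of p300+/- pool 1. The sixth, 1415801_at, was at -0.045, 0.22 and 0.045 in p300+/- pools 1 to 3, against 0.13, -0.54 and -1.04 in wild-type pools 1 to 3. It gave 0.55 ± 0.27 (SE) in the opposite direction, and its lowest pools were wild-type 3 and 2. The probe sets of Gja1 therefore spread over 0.854 on the log2 scale. Over Gja1 and Gjb6 the median fold change was -0.14 in 7 probe sets, -0.064 without wild-type pool 2, -0.070 without p300+/- pool 1 and -0.22 without p300+/- pool 2. It was 0.062 in the 3 left when those that read several transcripts were omitted.

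**Figure D3:**
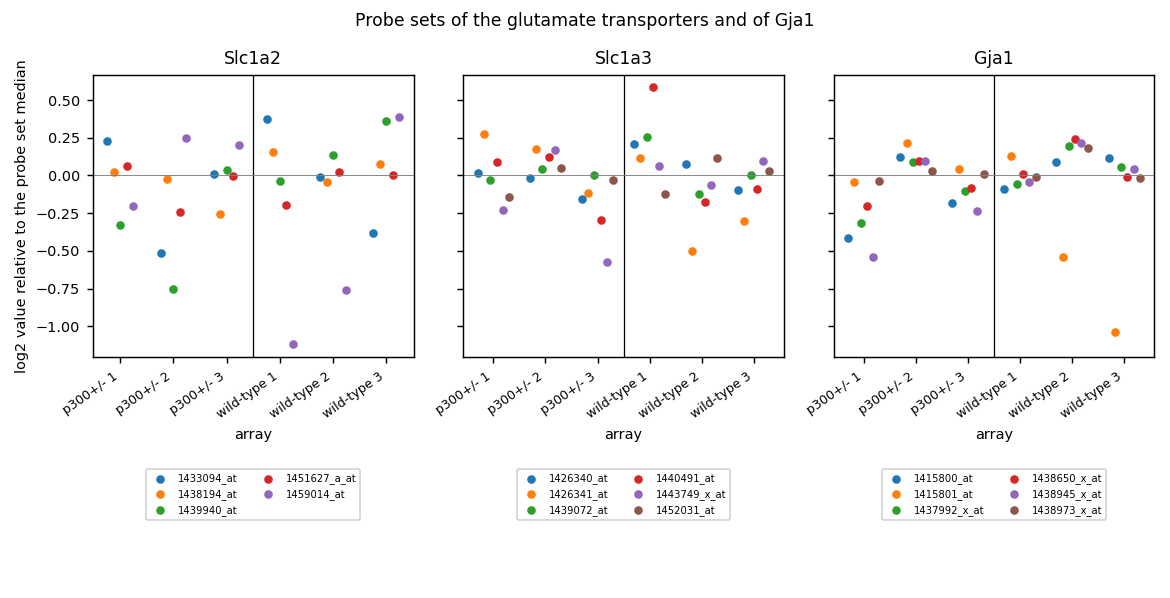
Log2 values relative to the probe set median (vertical axis) in each pool (horizontal axis, p300+/- left of the line and wild-type right of it) for the 5 probe sets of Slc1a2, 6 of Slc1a3 and 6 of Gja1, a colour each. Within a pool the probe sets of a gene lie apart, as 1415801_at of Gja1 does at -1.04 in wild-type pool 3.

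Gjb6, with a single probe set, was at 0.025, -0.071 and 0.82 in p300+/- pools 1 to 3, against -0.11, 0.72 and -0.025 in wild-type pools 1 to 3. It was high in 1 pool of each genotype, p300+/- 3 and wild-type 2, and near 0 in the other 4. Fabp7, a brain fatty acid-binding protein of astrocytes and radial glia, had the same 2 pools on top, at -0.16, -0.13 and 0.81 in p300+/- pools 1 to 3, against -0.033, 0.95 and 0.033 in wild-type pools 1 to 3. Their differences between genotypes were 0.062 ± 0.30 (SE) for Gjb6 and -0.14 ± 0.35 (SE) for Fabp7, both smaller than the SD within either genotype. Over the astrocyte probe sets, p300+/- pool 3 and wild-type pool 2 were the 2 highest of the 6 in 11 (14.5%) and the 2 lowest in 8 (10.5%), beside 21.4% and 15.8% of all probe sets.

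Gfap, the astrocytic intermediate filament, did not follow that pattern. Probe set 1426508_at was at 0.0044, -0.51 and 0.45 in p300+/- pools 1 to 3, against -0.0044, -0.81 and 0.48 in wild-type pools 1 to 3, and 1426509_s_at was at 0.056, -0.60 and 0.32 in p300+/- pools 1 to 3, against -0.056, -0.86 and 0.45 in wild-type pools 1 to 3. In both, pool 2 of each genotype was low and pool 3 of each was high, with pool 1 in the middle. Their differences were 0.092 ± 0.36 (SE) and 0.082 ± 0.36 (SE), beside a range of 1.29 and 1.32 over the pools. The first was -0.26 without wild-type pool 2 and -0.14 without p300+/- pool 3.

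The remaining Gfap probe set, 1440142_s_at, went against them in wild-type pool 2, at -0.0086, -0.17 and 0.0086 in p300+/- pools 1 to 3, against -0.014, 0.70 and 0.13 in wild-type pools 1 to 3. It gave -0.33 ± 0.19 (SE). Vim, which encodes vimentin, the other intermediate filament of astrocytes, had 3 probe sets between -0.12 and 0.13. Vimentin is also made by endothelial and meningeal cells. Over both filament genes 3 probe sets were above 0 and 3 below.

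**Figure D4:**
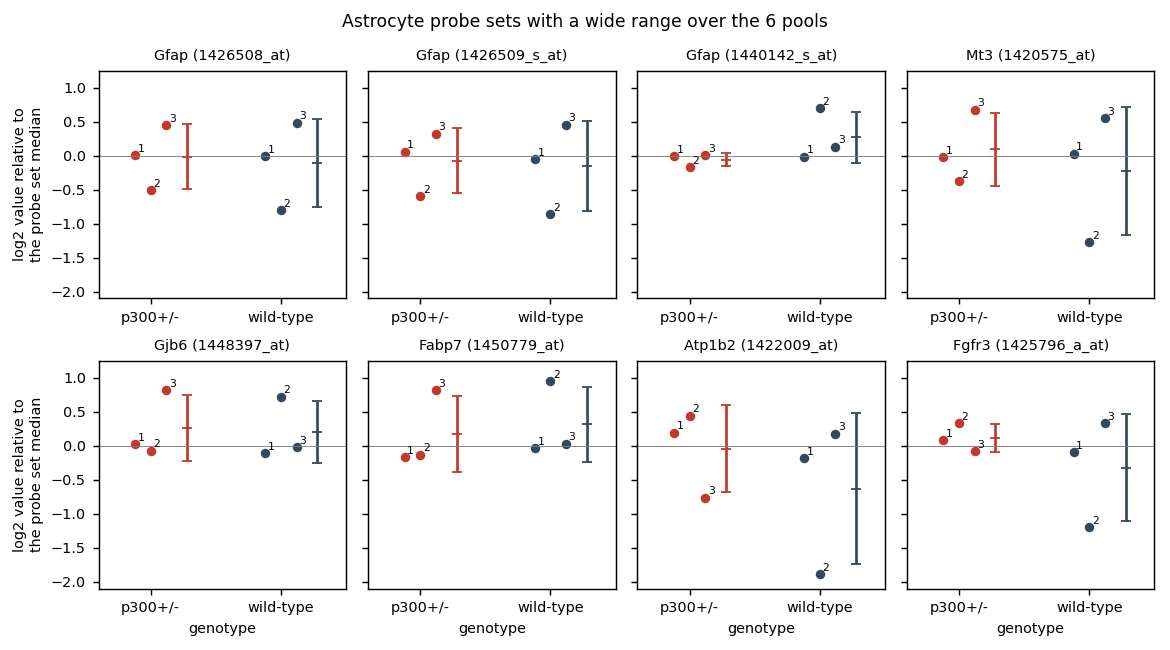
Log2 values relative to the probe set median (vertical axis) in 8 astrocyte probe sets, with a numbered point per pool, p300+/- left and wild-type right, and the mean with its SD beside the points. The first 2 Gfap probe sets and Mt3 are low in pool 2 of each genotype, whereas Gjb6 and Fabp7 are high in p300+/- pool 3 and wild-type pool 2.

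Metal handling was the role in which all probe sets had higher values in p300+/- pools, 6 of 6 where 51.7% of all probe sets had, with a median log2 fold change of 0.19, and none passed. The 6 probe sets read 4 genes and are not independent of each other. The count was also 6 of 6 with quantile normalization, and 5 or 6 of 6 with any single pool left out. It was 5 of 6 with array weights, and 5 of 6 without p300+/- pool 3 and wild-type pool 2 together. The median was 0.083 without p300+/- pool 3, 0.13 without wild-type pool 3 and 0.30 without p300+/- pool 2. Metallothioneins are small cysteine-rich proteins that bind zinc and copper. Mt1 and Mt2 are induced by metals and glucocorticoids in many cells, whereas Mt3 is a form of the brain. In the mouse, Mt3, Mt2 and Mt1 lie in that order on chromosome 8 (RefSeq, GRCm38.p6). Metal response elements, the sites bound by the zinc-sensing factor MTF1, are known from the Mt1 and Mt2 promoters. As all of these genes gave fold changes above 0 in the main fit, the promoters of Mt1, Mt2 and Mt3 are shown. Mt3 did not keep that sign under every setting, as given below. The windows run from 250 bases before to 50 after the start annotated in RefSeq. Capitals mark each match to TGCACNC or TGCGCNC, the core of that element, on either strand.
Mt1, chr8:94178839-94179138, + strand, GRCm38.p6: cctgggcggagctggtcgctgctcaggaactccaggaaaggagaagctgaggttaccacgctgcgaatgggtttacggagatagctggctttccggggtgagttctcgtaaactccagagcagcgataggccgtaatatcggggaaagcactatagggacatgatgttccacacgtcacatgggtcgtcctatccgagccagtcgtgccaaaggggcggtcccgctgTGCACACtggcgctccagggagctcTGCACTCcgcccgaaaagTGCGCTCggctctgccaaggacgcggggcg
Mt2, chr8:94172368-94172667, + strand, GRCm38.p6: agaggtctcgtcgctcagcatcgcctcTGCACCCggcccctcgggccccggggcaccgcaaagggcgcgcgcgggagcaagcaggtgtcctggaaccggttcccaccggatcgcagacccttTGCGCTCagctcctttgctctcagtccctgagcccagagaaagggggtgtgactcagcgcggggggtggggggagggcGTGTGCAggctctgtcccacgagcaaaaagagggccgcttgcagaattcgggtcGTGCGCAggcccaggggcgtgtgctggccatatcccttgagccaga
Mt3, chr8:94152357-94152656, + strand, GRCm38.p6: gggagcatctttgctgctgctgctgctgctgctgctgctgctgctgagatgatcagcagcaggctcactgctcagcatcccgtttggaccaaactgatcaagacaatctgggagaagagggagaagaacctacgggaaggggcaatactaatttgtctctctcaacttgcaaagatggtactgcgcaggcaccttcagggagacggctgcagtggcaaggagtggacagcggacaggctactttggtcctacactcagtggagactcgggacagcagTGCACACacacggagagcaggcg

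The window of Mt1 held 3 matches, that of Mt2 held 4 and that of Mt3 held 1. Not all lay upstream of the annotated start. In each window the match nearest the end lay in the last 50 bases, after that start. In Mt1 the match before it did too. The start is that of the RefSeq annotation, and where transcription begins in these pools was not tested. Of 32851 promoter windows of this length, 25.7% held at least 1 match, 1.97% held 3 or more and 0.517% held 4 or more. Among the 27 astrocyte genes with a window in the table, 11 had a match, and only Mt1 and Mt2 had 3 or more. These matches describe the letters of the windows and say nothing of binding.

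Mt1 probe set 1422557_s_at was at 0.23, -0.095 and 0.26 in p300+/- pools 1 to 3, against 0.095, -0.15 and -0.11 in wild-type pools 1 to 3, and 1451612_at was at 0.15, -0.18 and 0.33 in p300+/- pools 1 to 3, against -0.15, 0.17 and -0.20 in wild-type pools 1 to 3. The differences were 0.19 ± 0.14 (SE) and 0.16 ± 0.17 (SE). Mt2 was at 0.15, -0.012 and 0.026 in p300+/- pools 1 to 3, against 0.012, -0.11 and -0.35 in wild-type pools 1 to 3, a difference of 0.20 ± 0.13 (SE). In all 3 probe sets p300+/- pools 1 and 3 had values above 0 and p300+/- pool 2 below it, and the genotypes overlapped. Mt3 was at -0.025, -0.38 and 0.68 in p300+/- pools 1 to 3, against 0.025, -1.27 and 0.55 in wild-type pools 1 to 3, low in pool 2 and high in pool 3 of each genotype like the first 2 Gfap probe sets. Its difference of 0.32 ± 0.47 (SE) became -0.20 without wild-type pool 2.

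Slc39a12, a zinc importer of the brain, completed this group. In probe set 1447248_at the values were 0.015, 0.18 and 0.28 in p300+/- pools 1 to 3, against -0.16, -0.28 and -0.015 in wild-type pools 1 to 3, and every p300+/- pool lay above every wild-type pool. The difference was 0.31 ± 0.13 (SE), with a 95% interval of 0.0070 to 0.61 and an unadjusted p of 0.0461 (limma, adjusted p = 0.9999). The brighter probe set of the gene, 1436611_at, gave 0.030 ± 0.21 (SE), with p300+/- pool 3 and wild-type pool 2 highest at 0.41 each.

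Lipid carriers and other secreted proteins had the narrowest spread of fold changes among the roles, with 10 probe sets between -0.11 and 0.099, 4 above and 6 below 0. Apoe, the main lipid carrier made by astrocytes, was at 0.090, -0.027 and 0.15 in p300+/- pools 1 to 3, against -0.030, 0.027 and -0.085 in wild-type pools 1 to 3, a difference of 0.099 ± 0.11 (SE) with a 95% interval of -0.16 to 0.36. Clu, the chaperone-like apolipoprotein clusterin, had 4 probe sets between -0.11 and 0.086, and 1454849_x_at had a range of only 0.14 over the pools. Agt, the angiotensin precursor, was at -0.10 ± 0.18 (SE). Cpe, a carboxypeptidase that trims prohormones in neurons and glia, was at -0.094 and 0.093. S100b, a calcium-binding protein of astrocytes, was at 0.019, -0.27 and 0.22 in p300+/- pools 1 to 3, against -0.019, 0.083 and -0.12 in wild-type pools 1 to 3 in 1419383_at, with differences of 0.0082 ± 0.15 (SE) there and -0.032 in its other probe set.

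Metabolic genes lay close to 0 as well. Aldh1l1, the folate enzyme used to mark astrocytes, was at 0.20, -0.14 and 0.0042 in p300+/- pools 1 to 3, against 0.17, -0.061 and -0.0042 in wild-type pools 1 to 3 in its first probe set (1424400_a_at). The difference was -0.013 ± 0.13 (SE), and 1424401_at gave 0.095 ± 0.11 (SE). Acsbg1, an acyl-CoA synthetase, gave 0.017 ± 0.11 (SE), and Ndrg2 gave 0.013 ± 0.11 (SE). Both had a range under 0.2 over the 6 pools, and their 95% intervals ran over -0.24 to 0.27 and -0.26 to 0.28. Ppp1r3c, which directs protein phosphatase to glycogen, was at 0.14 and -0.051.

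Among receptors, Fgfr3, a fibroblast growth factor receptor, was at -0.034 ± 0.11 (SE) in its bright probe set 1421841_at. In 1425796_a_at it was at 0.080, 0.33 and -0.080 in p300+/- pools 1 to 3, against -0.098, -1.19 and 0.33 in wild-type pools 1 to 3. That difference of 0.43 ± 0.36 (SE) was -0.0045 without wild-type pool 2, the lowest. Ntsr2, a neurotensin receptor, was at 0.12 ± 0.13 (SE).

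Of the transcription factors, Sox9, which specifies glia and maintains astrocyte identity, had 3 probe sets between -0.0089 and 0.032. Gli3, an effector of Hedgehog signalling, was read by 3 probe sets. In 1456067_at the values were -0.25, -0.058 and -0.14 in p300+/- pools 1 to 3, against 0.13, 0.33 and 0.058 in wild-type pools 1 to 3. All 3 p300+/- pools lay below all 3 wild-type pools. The difference was -0.32 ± 0.12 (SE), with a 95% interval of -0.61 to -0.031 and an unadjusted p of 0.0341 (limma, adjusted p = 0.9999), and it ran over -0.38 to -0.24 when single pools were left out. The other Gli3 probe sets gave -0.13 ± 0.13 (SE) (1455154_at) and 0.037 ± 0.12 (SE) (1450525_at). The 3 Gli3 probe sets lay in the middle level class.

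Agreement in sign between probe sets of a gene was the exception. Of the 22 genes with several probe sets, 5 had all of them on the same side of 0. Sign alone says little where fold changes lie near 0. Those of S100b and Sox9 differed in sign but spread over only 0.040 and 0.041, whereas those of Atp1b2 shared a sign and spread over 0.479. Atp1b2, Hepacam, Mt1 and Slc39a12 had fold changes above 0 in each probe set and Slc14a1 below 0, none of which passed. When the probe sets of each gene were averaged, the 33 fold changes ran from -0.18 (Slc14a1) to 0.35 (Atp1b2), and 0 genes had an unadjusted p under 0.05 (limma). The sign of the fold change stayed the same with every single pool left out in 35 of the 76 probe sets, 18 of them higher and 17 lower.

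The SD within genotypes, pooled over both, had a median of 0.168 over the astrocyte probe sets and 0.186 over all probe sets. The median absolute log2 fold change was 0.111 in astrocyte probe sets and 0.0894 in all. The median range over the 6 pools was 0.506 and 0.483. Within level classes the astrocyte value was not always the larger. It was 0.50 beside 0.508 in the highest class, 0.551 beside 0.526 in the middle one and 0.297 beside 0.366 in the lowest. A range over 1 on the log2 scale occurred in 11 astrocyte probe sets (14.5%) and in 9.49% of all. In 8 of these 11 (72.7%), p300+/- pool 3 or wild-type pool 2 was the highest or the lowest, beside 88.2% of all probe sets with such a range. Wild-type pool 2 was at an end of the range in 51.3% of astrocyte probe sets, beside 45.6% of all.

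A pair of further lists describes astrocytes beyond these genes, each gene read by its first probe set. Among 40 other genes expressed in astrocytes, 27 had higher and 13 lower values, with a median of 0.040, and 0 passed. For the 33 genes themselves the count was 22 higher and 11 lower with a median of 0.037. Over all genes 57.5% were higher, with a median of 0.024. Of the 40, those with the smallest p were Tril, a membrane protein that assists Toll-like receptors, at -0.28 ± 0.12 (SE), and Kcnj16, an inward rectifier potassium channel subunit, at -0.28 ± 0.13 (SE). Tril was at -0.028, -0.24 and -0.24 in p300+/- pools 1 to 3, against 0.17, 0.028 and 0.12 in wild-type pools 1 to 3, so that all p300+/- pools were below all wild-type pools, and the same held for Kcnj16. These were the 2 of the 40 (5%) whose genotypes did not overlap, beside 5.24% of all genes. Without p300+/- pool 3 the counts were 15 higher and 25 lower of the 40, and 16 higher and 17 lower of the 33. Without wild-type pool 3 they were 23 and 17 of the 40, and 16 and 17 of the 33.

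Of 34 measured genes known to rise in reactive astrocytes, 22 were higher and 12 lower, with a median of 0.073, and 0 passed. Without wild-type pool 1, and also without wild-type pool 3, the counts were 19 higher and 15 lower. Without wild-type pool 2 they were 24 and 10. With single pools left out the median ran from 0.021 (without wild-type pool 1) to 0.11 (without wild-type pool 2). Cd109, a GPI-anchored protein that binds TGF-beta, was at 0.39 ± 0.12 (SE), with values of 0.098, 0.36 and 0.11 in p300+/- pools 1 to 3, against -0.098, -0.24 and -0.27 in wild-type pools 1 to 3. Psmb8, an immunoproteasome subunit that interferon also induces, was at 0.31 ± 0.11 (SE). In both the genotypes did not overlap, as in 4 of the 34 (11.8%), beside 5.24% of all genes. An unadjusted p under 0.05 was met by 5.88% of the list and 1.03% of all genes. Gfap, the usual mark of reactivity, showed the pool differences described above.

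Medians of other cells' markers varied between pools more than that of the 33 astrocyte genes did. Those lists were shorter, with 8 (thalamic) to 15 (oligodendrocyte and precursor) measured genes, and a median over fewer genes varies more by itself. The part of list length in this was not tested. The median over these 33 was 0.0098, -0.022 and 0.031 in p300+/- pools 1 to 3, against -0.017, -0.011 and -0.0042 in wild-type pools 1 to 3. A steady median does not mean steady genes, as single genes of the 33 ran from -1.89 to 0.95 in wild-type pool 2. The median of the 40 further astrocyte genes ran from -0.038 (p300+/- pool 2) to 0.11 (p300+/- pool 3). That of the reactive astrocyte genes ran from -0.081 (wild-type pool 1) to 0.093 (wild-type pool 2). For 13 neuronal genes the median was 0.0093, 0.13 and -0.11 in p300+/- pools 1 to 3, against 0.028, -0.20 and 0.13 in wild-type pools 1 to 3. For 14 choroid plexus genes it was 0.13, -0.043 and 0.28 in p300+/- pools 1 to 3, against -0.16, -2.21 and 0.23 in wild-type pools 1 to 3. Wild-type pool 2, lowest in both Atp1b2 probe sets, in 1425796_a_at of Fgfr3, in Mt3 and in the first 2 Gfap probe sets, also had the lowest neuronal and choroid plexus medians. In 1421841_at, the bright probe set of Fgfr3, the same pool was the highest. The next lowest neuronal median was that of p300+/- pool 3, which was next lowest in Atp1b2 but highest in Mt3 and above 0 in the first 2 Gfap probe sets. Syt1, a neuronal vesicle protein, was at 0.069, 0.83 and -1.25 in p300+/- pools 1 to 3, against -0.069, -1.91 and 0.31 in wild-type pools 1 to 3. The part of these differences in the astrocyte values was not tested.

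Between genotypes, choroid plexus genes had fold changes above 0 in 14 of 14, with a median of 0.88, which rested on wild-type pool 2. Without that pool it was 11 of 14, with a median of 0.11. Ependymal genes had fold changes above 0 in 9 of 9, with a median of 0.24, and in 7 of 9, with a median of 0.15, without p300+/- pool 3. The neuronal median was 0.034, and without wild-type pool 2 it was -0.13, with 2 of 13 above 0. The other medians were 0.084 for oligodendrocyte and precursor, 0.087 for microglial, 0.12 for vascular and meningeal and 0.077 for thalamic genes, and 0 genes of any list passed. The microglial median was -0.0020 without p300+/- pool 3 and -0.0022 without wild-type pool 1, and the thalamic one was -0.061 without p300+/- pool 2 and -0.0041 without wild-type pool 2. The microglial median was 0.012, -0.054 and 0.45 in p300+/- pools 1 to 3, against -0.096, 0.21 and -0.12 in wild-type pools 1 to 3, highest in the 2 pools in which Gjb6 and Fabp7 were high. The ependymal median was 0.041, 0.026 and 0.46 in p300+/- pools 1 to 3, against -0.11, -0.074 and -0.062 in wild-type pools 1 to 3.

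Within these lists the smallest p-values belonged to Gad2 (0.37) and Syt1 (0.44) among neuronal genes and to Mal (0.22) and Mobp (0.26) among myelin genes. They belonged to Itgam (0.23) and Tmem119 (0.21) among microglial genes and to Dcn (0.37) and Col1a2 (0.44) among vascular ones. Kl (0.90) and Lbp (0.24) led the choroid plexus list, Dynlrb2 (0.70) and Tmem212 (0.50) the ependymal list, and Prkcd (0.32) and Zic1 (0.61) the thalamic list. All are log2 fold changes that did not pass.

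**Figure D5:**
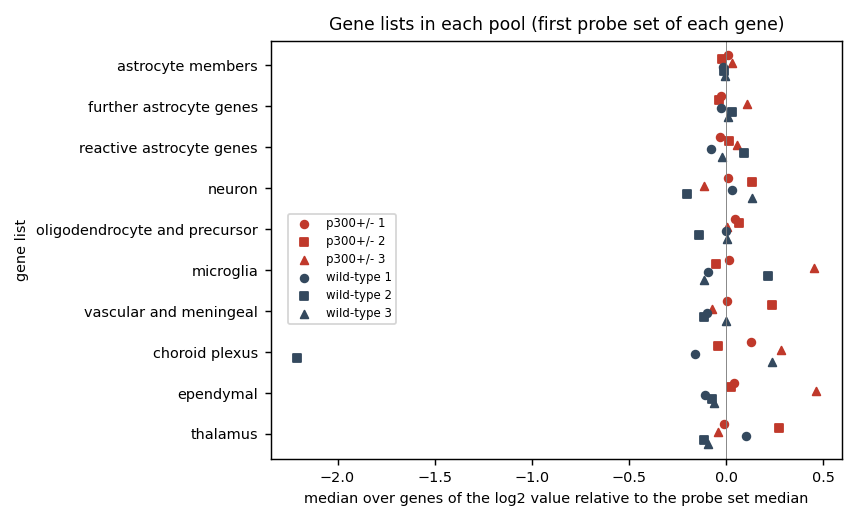
Median over the genes of each list (rows) of the log2 value relative to the probe set median (horizontal axis), with a point per pool, p300+/- in red and wild-type in blue-grey, and the shape giving the pool number. The medians of the 33 astrocyte genes lie within 0.031 of 0 in every pool. That of the further astrocyte genes reaches 0.11 in p300+/- pool 3. Reactive astrocyte medians run from -0.081 (wild-type pool 1) to 0.093 (wild-type pool 2), and the choroid plexus median of wild-type pool 2 is at -2.21.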

How the data were processed

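RNA of individual hippocampi was isolated with Trizol, cleaned on columns and pooled, and arrays were normalized by the authors in GeneSpring GX, per the labels' protocols. Neither its version nor the summarization or log base is stated there. The deposited log2 values had a median of 0 (within 1e-06) in each probe set's row. Of 45101 probe sets, 64 controls were left out. Gene symbols are those of the platform annotation, updated through RefSeq (GRCm38.p6), so that 34945 probe sets had 1 symbol, 932 several and 9160 none. A probe set that names Slc1a2 together with another gene was not used.

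All probe sets were fitted with limma 3.58.1 in R 4.3.3 without covariates, after a check on simulated data. Labels call the pools independent replicates. Deviations of same-numbered pools from their genotype means had correlations of 0.609, -0.230 and -0.468. These cannot decide whether replicate numbers pair the pools, since the 3 deviations of a genotype sum to 0. The main fit used no pairing, and a fit with the replicate number as a block is given below. Level classes counted steps wider than that of 8 to 16 with that class.

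Members and lists were chosen with earlier results of these data known. Values in every pool were set to be given for probe sets with an unadjusted p under 0.05 or genotypes that did not overlap, the 5 genes of widest range, and the first probe set of 8 main markers. From each further list the 2 genes of smallest p were named. Other values were singled out after they were seen, such as those of Fabp7, Gjb6, Apoe, Mt1, Mt2, Slc7a10, the first Slc14a1 probe set and the further probe sets of Gfap and Gja1. Promoters came from RefSeq, by symbol. Figures were drawn with matplotlib 3.10.9.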

Additional observations from a re-analysis of the deposited data

How the results depend on the processing

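The count of 0 astrocyte and 0 other probe sets past the threshold was the same under each of the 16 other settings tried, with limma in all of them. These were quantile normalization, median centring, trended and robust moderation, array weights, a replicate block, omission of probe sets of several transcripts or of the lowest level class, gene means, a threshold of 0.1, each pool left out, and p300+/- pool 3 and wild-type pool 2 left out together, the last chosen after seeing the data. At an unadjusted p under 0.05 these gave 171 (gene means) to 1632 (array weights) over all, with 1151 without wild-type pool 2, 1095 without p300+/- pool 1 and 1075 without both pools named above, and 0 (without wild-type pool 2, and gene means) to 5 (array weights) astrocyte probe sets or genes. Lists and roles with pools left out were added after seeing the data. With the replicate number as a block there were 0 calls, with 604 at an unadjusted p under 0.05 in place of 550 and 2 astrocyte probe sets in place of 3. With trended and robust moderation the smallest adjusted p over all probe sets was 0.0668 (limma), beside 0.9999 in the main fit. The threshold of 0.1 was tried on the main fit alone. A filter on the mean could not be run on centred values, and level classes took its place.

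The median astrocyte fold change of 0.0011 moved to -0.027 with quantile normalization, -0.017 with array weights, 0.017 without probe sets of several transcripts and 0.017 with gene means. It was -0.019 without p300+/- pool 3 and wild-type pool 2 together and ran from -0.038 to 0.012 with single pools left out. Some fold changes changed sign. With single pools left out they ran over -0.27 to 0.12 for Slc1a2 (1433094_at), -0.081 to 0.24 for Glul (1426235_a_at), -0.0075 to 0.70 for Aqp4 (1447745_at), -0.044 to 0.99 for Atp1b2 (1422009_at), -0.26 to 0.39 for Gfap (1426508_at), -0.11 to 0.14 for S100b (1419383_at), -0.10 to 0.066 for Aldh1l1 (1424400_a_at), -0.20 to 0.71 for Mt3 and -0.0045 to 0.76 for Fgfr3 (1425796_a_at). Gfap was at -0.10 with quantile normalization, -0.13 with array weights and -0.49 without both pools. S100b was at -0.025, -0.017 and -0.057 in the same 3 settings. Mt3 was at -0.053 with array weights and -0.49 without both pools. The cause was not tested. Of the probe sets with an unadjusted p under 0.05, Slc1a2 (1439940_at) ran over -0.69 to -0.30, Slc39a12 (1447248_at) over 0.24 to 0.38 and Gli3 (1456067_at) over -0.38 to -0.24 with single pools left out.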
